A study of Mus musculus with 16 samples.

Results

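YAP and TAZ are transcriptional coactivators that do not bind DNA themselves and act on genes through the TEAD factors. The 10 genes described here are Yap1, Wwtr1 (which encodes TAZ), Tead1, Tead2, Tead3, Tead4, the TEAD cofactors Vgll3 and Vgll4, and the Hippo pathway genes Amotl2 and Lats2. They are 10 of the 21938 protein-coding genes annotated in GENCODE vM21, chosen by their symbols. For each gene, the binding sites within 3 kb of a transcription start site (TSS), in the gene body and within 50 kb of a TSS were collected from the lists of V5, RNAPOL2 and H3K27ac peaks. There were 101 such peaks, of which 16 were V5, 40 were RNAPOL2 and 45 were H3K27ac peaks.

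The peaks came from mouse clear cell sarcoma (mCCS), a soft tissue tumour driven by EWSR1::ATF1 (EA1), which carries the DNA-binding domain of ATF1. All tumours carried the same genotype: a human type 1 EWSR1::ATF1 cDNA with a V5 tag, placed at the Rosa26 locus of mice of mixed 129/SvJ and C57Bl/6 background and switched on by TATCre injected into the hindlimb at 4 weeks of age. Chromatin was precipitated with anti-V5, which marks the fusion, anti-RNAPOL2, which marks phosphorylated RNA polymerase II, and anti-H3K27ac, which marks acetylated histone H3 at active promoters and enhancers. The labels give 4 samples for each antibody and 4 of input chromatin, 16 in all. More V5 and RNAPOL2 samples appear in the methods, and the samples behind a given list are therefore unknown. The study also describes a larger set of fusion sites than the V5 list used here, so the absence of a V5 peak below means absence from this list. No tumour without the fusion was among these samples, so the peaks describe the tumours as they were and hold no comparison of fusion with control. The tumours were ground whole, and only cells that had recombined the Rosa26 allele could carry the tag, whereas every cell gave RNAPOL2 and H3K27ac signal. Fewer cells with a peak and less signal per cell cannot be told apart in such bulk tissue.

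The Hippo pathway restrains YAP and TAZ. Its LATS kinases phosphorylate both coactivators and hold them in the cytoplasm, and when the kinases are idle YAP and TAZ enter the nucleus and bind TEAD proteins on the sequence GGAATG, the MCAT element. The VGLL proteins bind the same TEADs, and several inhibitors of the pathway, AMOTL2 and LATS2 among them, are themselves well known YAP target genes, which closes a negative feedback loop.

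Each antibody had a single peak list, and the spread between tumours cannot be had from it. Each peak carries a whole-number score of unknown scale, which can be read within its own list only and is given with its rank, rank 1 being the highest. Median scores were 230 over 10665 V5 peaks, 246 over 20375 RNAPOL2 peaks and 212 over 27552 H3K27ac peaks. The lists give no read depth. No test was run, and counts over the 10 genes are set beside the share of all coding genes or of all V5 peaks that meet the same criterion. Long genes with many TSSs have more room for peaks: the median body was 70.7 kb for the 10 genes and 17.4 kb for all coding genes, and the median number of annotated TSSs was 7.5 and 3.

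The V5 peaks were searched for the motif of the DNA-binding domain that the fusion carries. The canonical ATF/CREB motif is TGACGTCA, the cAMP response element that ATF1 recognises. It was found in V5 peaks at the promoters of Tead1 and Amotl2, in Vgll4, downstream of Vgll4 and in an intron of Wwtr1. The stretches from Amotl2, Vgll4 and Wwtr1, with 1 copy each, are given here. These stretches are from GRCm38, the assembly that mm10 names, on the plus strand, with the motif in capitals.
Vgll4 intron, chr6:114894003-114894090: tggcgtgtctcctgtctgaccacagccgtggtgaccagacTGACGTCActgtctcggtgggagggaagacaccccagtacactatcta
Downstream of Vgll4, in an intron of Atg7, chr6:114818108-114818195: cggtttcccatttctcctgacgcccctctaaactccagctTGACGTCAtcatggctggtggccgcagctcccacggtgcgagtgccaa
Wwtr1 intron, chr3:57534746-57534833: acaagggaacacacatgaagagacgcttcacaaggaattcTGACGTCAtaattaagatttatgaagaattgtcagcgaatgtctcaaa
Amotl2 promoter, chr9:102718374-102718403: gtccagtccggTGACGTCAgcgctgaagta
The letters around the 8 bases of the motif differ from stretch to stretch. The motif matches its own reverse complement, so each copy reads the same on both strands. Of the 16 V5 peaks, 5 held TGACGTCA, against 8.51% of all V5 peaks. They were 2 of the 5 V5 peaks at the genes' own promoters and 3 of the 10 that lay over 3 kb from every annotated TSS, where the shares among all V5 peaks were 12.9% and 5.51%. In 4 of the 5 peaks the motif lay over 100 bp from the middle of the peak. Within the central 200 bp, 1 of the 16 peaks held it, against 5.35% of all V5 peaks, a share near the background.

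RNAPOL2 and H3K27ac lay at the promoters of all 10 genes, and the fusion at those of 5. A peak within 3 kb of a TSS was counted as a promoter peak. RNAPOL2 promoter peaks were found at 10 of 10 genes, against 53.5% of all coding genes, and H3K27ac promoter peaks at 10 of 10, against 58.6%. V5 promoter peaks were found at Yap1, Tead1, Vgll3, Amotl2 and Lats2, which is 5 of 10, against 16.6% of all coding genes. The same 5 genes had promoter peaks in all 3 lists, as 15.9% of coding genes did. Among the coding genes with both RNAPOL2 and H3K27ac at the promoter, 30.4% also had V5. Requiring the peak to cover a TSS of the gene left these counts at 10, 10 and 5, where the shares of coding genes were 50.9%, 55.3% and 13.6%.

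The V5 promoter peaks were mostly weak ones. Their scores were 528 at Tead1, 142 at Lats2, 108 at Yap1, 73 at Amotl2 and 43 at Vgll3. The median of the 5 was 108, and the median over the 2979 coding genes with a V5 peak on a TSS was 185. Tead1 alone among them was above the median score of the V5 list. The RNAPOL2 and H3K27ac peaks on the TSSs of the 10 genes had medians of 1009.5 and 1605.5, beside 920 and 883 for all coding genes with such a peak, and 5 and 7 of the 10 genes exceeded those medians.

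**Figure D1:**
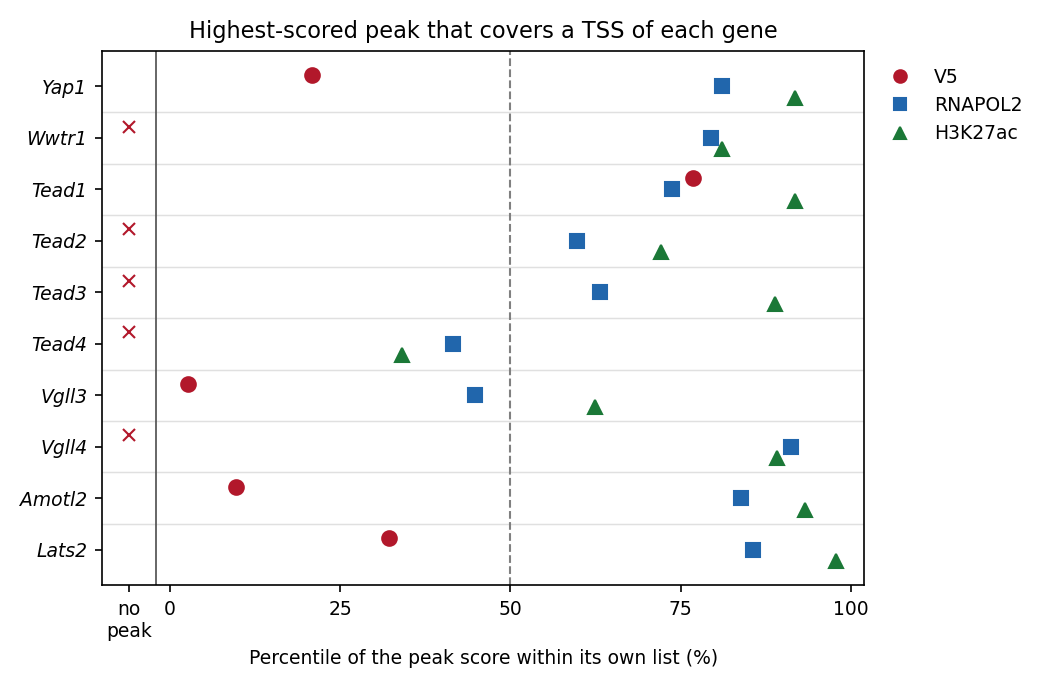
Percentile, within its own list, of the highest-scored peak that covers a TSS of each gene, for V5 (circles), RNAPOL2 (squares) and H3K27ac (triangles). Crosses at the left mark genes without such a peak and the dashed line marks the middle of a list; each symbol is 1 peak of a single list, so there is no error bar. Tead1 is the one gene with V5 in the upper part of its list (76.8%), whereas Tead4 is the one with H3K27ac in the lower part (34.1%).

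Yap1, the gene of the coactivator YAP, lies on the minus strand at chr9:7931999-8004596. Its promoter carried a V5 peak at chr9:8004011-8004900 with a score of 108, rank 8438 of 10665. The RNAPOL2 peak there scored 1215 (rank 3845) and the H3K27ac peak 1940 (rank 2250). Polymerase and acetylation thus stood well above the middle of their lists at Yap1 and the fusion well below the middle of its own. The V5 peak covered 3 TSSs and the first exon, and it held neither TGACGTCA nor any other TGANNTCA sequence. It did hold the TEAD element, as CATTCC on the plus strand, which is GGAATG on the strand of the gene. This stretch is shown with that element in capitals.
Yap1 promoter, chr9:8004692-8004777, plus strand: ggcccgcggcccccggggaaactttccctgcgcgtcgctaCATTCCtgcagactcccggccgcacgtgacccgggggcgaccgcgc
No other V5 peak lay within 50 kb of a Yap1 TSS. RNAPOL2 had 3 further peaks there. A pair of them, scored 71 and 25, lay beyond the end of the gene, and the other, scored 421, was at the promoter of the neighbour Cfap300.

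Wwtr1, which encodes TAZ, lies on the minus strand at chr3:57455649-57575910. Its promoter had RNAPOL2 with a score of 1134 (rank 4182) and H3K27ac with 1006 (rank 5203). No V5 peak lay within 3 kb of either of its TSSs. The one V5 peak of the gene was in an intron, at chr3:57534621-57535210, 40618 bp downstream of the nearest TSS. Its score was 50, rank 10180, near the bottom of the list. It held the TGACGTCA shown above and overlapped neither RNAPOL2 nor H3K27ac. The closest H3K27ac peak, scored 80, ended just short of it. Between the paralogous coactivators, the V5 peak thus lay on the TSS in Yap1 and within an intron in Wwtr1.

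Tead1 had the strongest fusion peak among the 10 genes. The gene lies on the plus strand at chr7:112679318-112906807 and encodes one of the TEAD DNA-binding partners of YAP and TAZ. The V5 peak at its promoter scored 528, rank 2475 of 10665, at the 76.8th percentile of the list. It was 1400 bp wide and covered 4 of the 13 annotated TSSs. RNAPOL2 scored 885 (rank 5358) and H3K27ac 1940 (rank 2250) at the same place. All 3 scores were above the median of their list, but RNAPOL2 was under the median of 920 for coding genes with a peak on a TSS.

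A pair of further V5 peaks lay within Tead1. One was in an intron at chr7:112812331-112812900, scored 88 (rank 9063) and overlapped neither mark. The other lay over the last exon and its untranslated region at the far end of the gene, at chr7:112906521-112907300, 66887 bp from the nearest Tead1 TSS. It scored 429 (rank 2962) and overlapped an H3K27ac peak scored 160 but no RNAPOL2 peak. The nearest coding TSS to this last peak was that of Rassf10, 47052 bp from its middle, and the assignment to Tead1 rests on its place in the gene body. Neither of them held TGACGTCA. Among the 3483 other coding genes with promoter peaks in all 3 lists, the 3 whose percentiles lay nearest to those of Tead1 over the 3 lists were Kcnk1, Mxi1 and Emc10, at distances of 1.55, 1.72 and 2.59 percentile points. Their V5 scores were 523, 496 and 509.

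Tead2, Tead3 and Tead4 had no V5 peak at the promoter, in the body or within 50 kb of a TSS. Tead1 was the only 1 of the 4 TEAD genes with the fusion in this range, but 12876 of the 21938 coding genes had no V5 peak within 50 kb either, and the contrast ended with a wider range. Within 100 kb of a TSS all 10 genes had a V5 peak, against 56% of coding genes. The nearest was 86.1 kb from Tead2 (score 241, rank 4978), 69.4 kb from Tead3 (score 59, rank 9952) and 54.5 kb from Tead4 (score 76, rank 9387). Tead2, on the plus strand at chr7:45215753-45233644, had RNAPOL2 with a score of 451 (rank 8185) and H3K27ac with 616 (rank 7684) over its TSSs. Tead3, on the minus strand at chr17:28331671-28350817, had RNAPOL2 with 543 (rank 7508) and H3K27ac with 1588 (rank 3074) over its TSSs. A far stronger RNAPOL2 peak, scored 3963 (rank 401), lay 2475 bp from an internal Tead3 TSS, but it covered the TSS of the ribosomal protein gene Rpl10a and was read as belonging to that gene. Tead4, on the minus strand at chr6:128224288-128300823, had the weakest promoter of the 10 genes in both marks, with 151 for RNAPOL2 (rank 11896) and 114 for H3K27ac (rank 18148). Among coding genes with a peak on a TSS, Tead4 stood at the 5.10th percentile for RNAPOL2 and the 5.09th for H3K27ac. The order of the TEAD genes by RNAPOL2 score was Tead1, Tead3, Tead2 and Tead4, and by H3K27ac score it was the same. With 1 list per antibody, which neighbours in that order differ beyond the spread between tumours cannot be said.

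Vgll3 and Vgll4 encode cofactors that bind TEAD proteins, and VGLL4 competes with YAP and is known as a repressor of YAP-TEAD transcription. Vgll3, on the plus strand at chr16:65815257-65866368, had a weak promoter, with RNAPOL2 at 179 (rank 11248), H3K27ac at 372 (rank 10369) and V5 at 43 (rank 10389) in a peak at chr16:65814961-65815530. Only Tead4 was lower in RNAPOL2. A second V5 peak in an intron at chr16:65818741-65819280, just outside the promoter window at 3112 bp from the nearest TSS, scored 137 (rank 7498) and so exceeded the promoter peak. It overlapped neither mark and held no TGACGTCA. It did hold an AP1 motif (TGAGTCA, here as TGACTCA), a TEAD element and a TGANNTCA variant, in that order along the stretch shown, where they are in capitals.
Vgll3 intron, chr16:65818937-65819129, plus strand: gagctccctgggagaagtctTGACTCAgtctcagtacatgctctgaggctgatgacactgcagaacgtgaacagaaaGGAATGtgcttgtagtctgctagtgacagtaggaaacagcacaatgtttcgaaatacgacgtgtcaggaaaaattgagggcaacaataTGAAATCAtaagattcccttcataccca

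Vgll4 carried the most peaks of the 10 genes in all 3 lists. It lies on the minus strand at chr6:114860628-114969994, is 109.4 kb long and has 7 annotated TSSs. It had 6 V5 peaks within 50 kb of a TSS, of which 5 lay in the gene body, and none within 3 kb of a TSS. Those scored 105 and 218 lay just outside that window, at 3107 and 3506 bp from a TSS. With a promoter window of 5 kb, V5 promoter peaks were found at 6 of the 10 genes. Of all coding genes, 1.31% had at least as many V5 peaks within 50 kb of a TSS, and of coding genes over 100 kb long 4.33% did. There were 16 RNAPOL2 peaks in the body, a number reached by 0.255% of coding genes and by 1.57% of those over 100 kb long. Most were of low score: only those scored 434, 461 and 2019 exceeded the RNAPOL2 list median of 246, and the lowest scored 25. The widest of the 16, which runs past the end of Vgll4, also covered a TSS of Atg7, and cannot be given to Vgll4 alone. With that peak included, RNAPOL2 peaks covered 20.2% of the body of Vgll4, and H3K27ac peaks covered 26.4%. In the other 9 genes RNAPOL2 covered 0.457% to 13.1% of the body.

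The strongest promoter peaks of Vgll4 were not at the start of the gene. The highest-scored RNAPOL2 peak, scored 2019 (rank 1795), and the highest-scored H3K27ac peak, 1623 (rank 2976), covered a pair of TSSs 48.2 kb inside the outermost one. The region of the outermost TSSs had no RNAPOL2 peak and a single H3K27ac peak scored 120 (rank 17530). A second internal promoter, with TSSs 94.9 and 95.0 kb inside the outermost one, carried H3K27ac scored 1539 (rank 3225) and RNAPOL2 scored 434 (rank 8309). All 5 V5 peaks in the body lay downstream of the first internal promoter. All but the one scored 105 lay between it and the second. From the first internal promoter onward the V5 scores were 218 at chr6:114917751-114918310, 402 at chr6:114904151-114905320, 419 at chr6:114893701-114894370, 43 at chr6:114890671-114891200 and 105 at chr6:114861081-114861650. All 5 overlapped both RNAPOL2 and H3K27ac. In the same order, the RNAPOL2 peaks they overlapped scored 461, 25, 190, 137 and 209, and only the first exceeded its list median of 246. The one scored 209 also covered the TSS of Atg7. The first 3 V5 peaks were intronic and the one scored 43 overlapped a coding exon. The V5 peak scored 105 overlapped the untranslated region at the end of the gene. It also held a string of 5 TGA or TCA units, as 10.2% of V5 peaks did. The peak scored 419, rank 3056, held the TGACGTCA shown above, 12 bp from its middle. The sixth V5 peak, at chr6:114817891-114818630 with a score of 326 (rank 3833), overlapped H3K27ac only. It lay inside the neighbouring gene Atg7, whose TSS was the nearest coding TSS at 37891 bp.

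Neighbouring H3K27ac peaks no more than 12 kb apart were joined, and the clusters with at least 3 peaks were examined. The body of Vgll4, from its first internal promoter to near its end, held one of 10 H3K27ac peaks over 61.7 kb, chr6:114860761-114922470, with 5 V5 and 16 RNAPOL2 peaks and no TSS of another coding gene. Of the 2450 clusters, 95 had at least as many H3K27ac peaks. Tead3 touched a cluster of 3 H3K27ac peaks over 24.2 kb, shared with Rpl10a and without V5. These were 2 of the 10 genes, against 15.8% of coding genes that touch a cluster, and 1 of 10 with V5 in the cluster, against 9.47%.

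**Figure D2:**
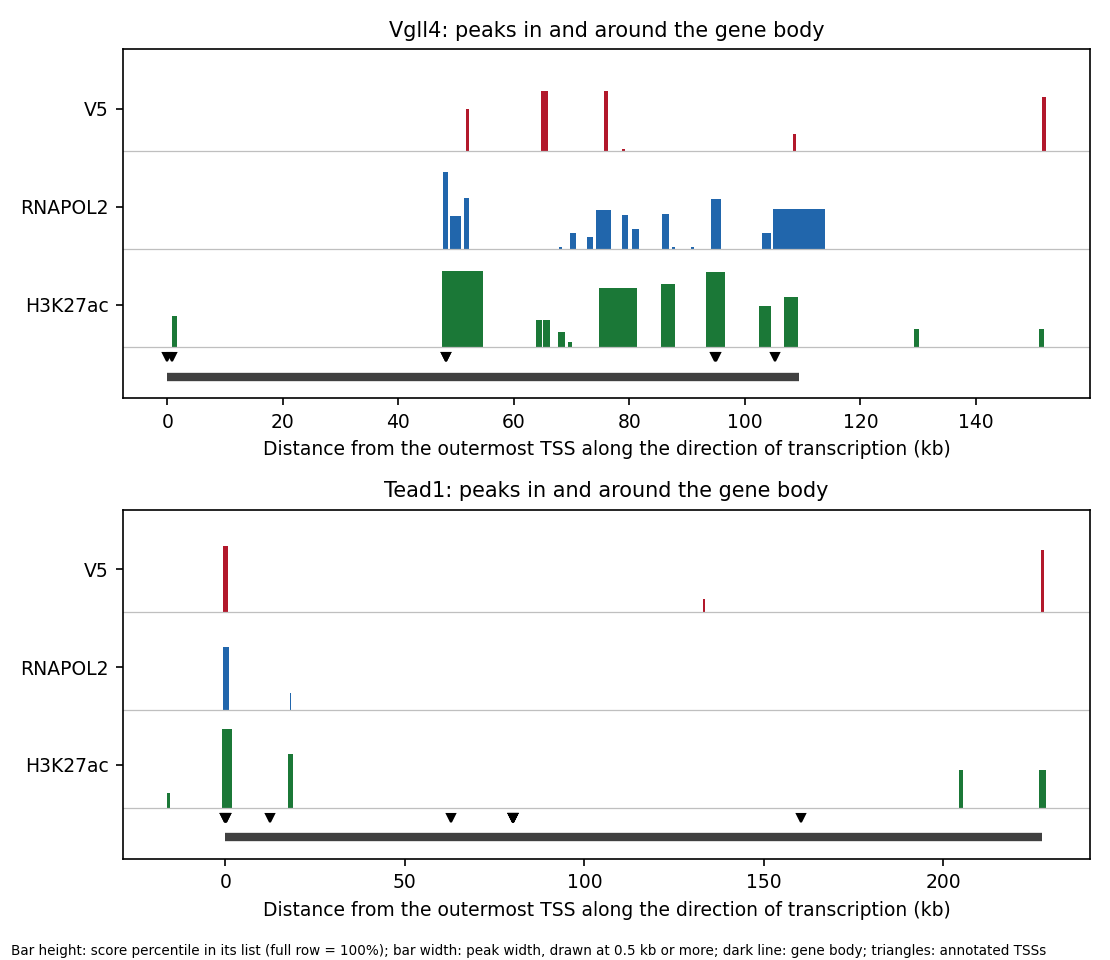
Peaks of the 3 lists along Vgll4 and Tead1, with distance from the outermost TSS in kb on the x axis, bar height as the percentile of the score in its list and bar width as the width of the peak. The dark line is the gene body and the triangles are annotated TSSs. In Vgll4 the RNAPOL2 peaks and, apart from 1 peak near the outermost TSS, the H3K27ac peaks begin at the internal TSSs 48.2 kb along, and the V5 peaks lie downstream of them, while in Tead1 the strongest V5 peak sits on the outermost TSS and another at the far end of the gene.

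Amotl2, an angiomotin that binds YAP and retains it outside the nucleus, lies on the plus strand at chr9:102716672-102733418. Its promoter had V5 with a score of 73 (rank 9626) at chr9:102717551-102718680, RNAPOL2 with 1382 (rank 3272) and H3K27ac with 2139 (rank 1872). The V5 peak covered 5 of its 13 TSSs and held TGACGTCA 37 bp upstream of the nearest of them, together with a TEAD element. Lats2, a kinase that phosphorylates YAP and TAZ, lies on the minus strand at chr14:57689662-57758388. Its promoter had V5 with a score of 142 (rank 7227) at chr14:57745511-57746520, RNAPOL2 with 1500 (rank 2932) and H3K27ac with 3536 (rank 601), the highest H3K27ac score among the 10 genes. These peaks covered TSSs 11.8 to 12.3 kb inside the outermost Lats2 TSS and also a TSS of the overlapping annotation Gm49361, so they cannot be given to Lats2 alone. A second V5 peak within 50 kb of a Lats2 TSS, again scored 142, covered the TSS of Xpo4 and overlapped both marks. Both feedback inhibitors therefore combined high RNAPOL2 and H3K27ac scores with V5 scores under the median of that list.

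Over the gene bodies, promoter peaks included, 7 of the 10 genes held a V5 peak, against 20% of all coding genes. In Yap1, Amotl2 and Lats2 the promoter peak was the only V5 peak in the body. The share rose with length among coding genes, from 11.9% under 20 kb to 21.1% from 20 to 50 kb, 30.7% from 50 to 100 kb and 44.9% over 100 kb. Of the 10 genes, 1 of 3 under 20 kb (Amotl2), 3 of 4 from 50 to 100 kb (Yap1, Vgll3 and Lats2) and 3 of 3 over 100 kb (Wwtr1, Tead1 and Vgll4) held one, and none was from 20 to 50 kb long. RNAPOL2 and H3K27ac were in the body of all 10, against 53.7% and 59.1%. In Yap1, Wwtr1, Tead2, Tead4 and Vgll3 the only RNAPOL2 peak in the body was the one on the TSS. Within 50 kb of a TSS, promoter peaks again included, V5 was found at 7 of 10 genes, against 41.3%. RNAPOL2 and H3K27ac were found there at all 10, against 69.9% and 75.1%. With the upper 50% of the V5 list by score, V5 was in the body of 2 of 10 genes, against 10.2%, and within 50 kb of 2 of 10, against 24%, so both counts rest on peaks of low score.

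**Figure D3:**
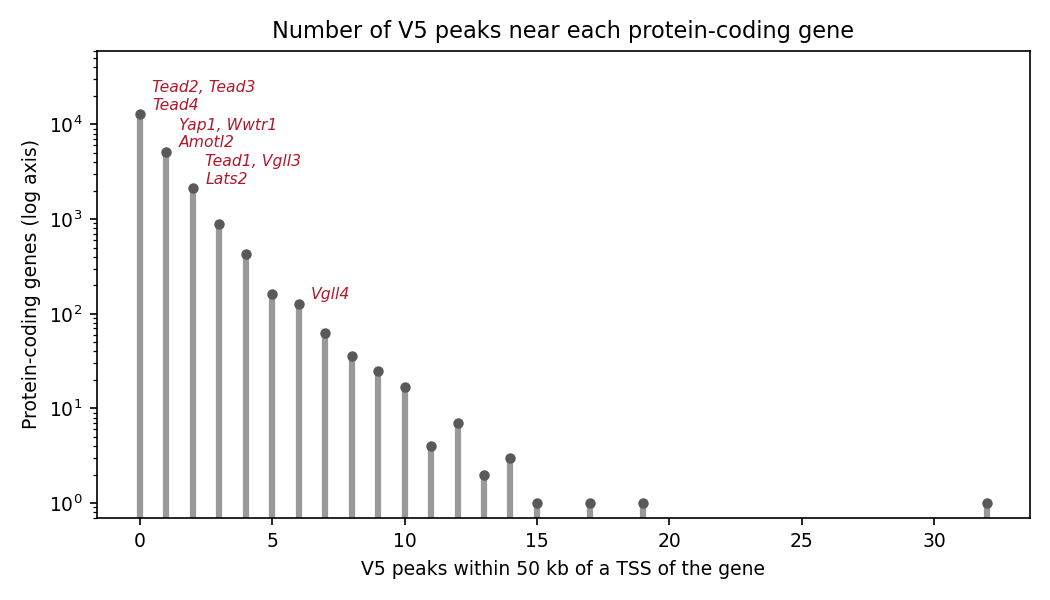
Number of protein-coding genes (log axis) by how many V5 peaks lie within 50 kb of a TSS, with the 10 genes written beside the number they have. Tead2, Tead3 and Tead4 are among the genes with 0 peaks, 6 genes have 1 or 2, and Vgll4 has 6.

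The 16 V5 peaks of the 10 genes ranged in score from 43 to 528 with a median of 139.5, and 5 of them exceeded the list median of 230. These 5 were the Tead1 promoter peak, the peak at the far end of Tead1 and 3 of the 6 peaks of Vgll4. RNAPOL2 overlapped 11 of the 16, against 42% of all V5 peaks, and H3K27ac 13 of the 16, against 73.4%. All 5 promoter peaks overlapped both, where 76.3% of all V5 promoter peaks overlapped RNAPOL2 and 91.1% overlapped H3K27ac. Of the 10 that lay over 3 kb from every TSS, 5 overlapped RNAPOL2, against 18.5%, and 7 overlapped H3K27ac, against 61.3%. Vgll4 gave all 5 of the former and 6 of the latter. Of the RNAPOL2 peaks under those 5, only the one scored 461 exceeded its list median of 246. Without Vgll4, 0 of the other 4 V5 peaks over 3 kb from every TSS overlapped RNAPOL2 and 1 overlapped H3K27ac. The 3 V5 peaks without either mark were the intronic ones of Wwtr1, Tead1 and Vgll3.

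**Figure D4:**
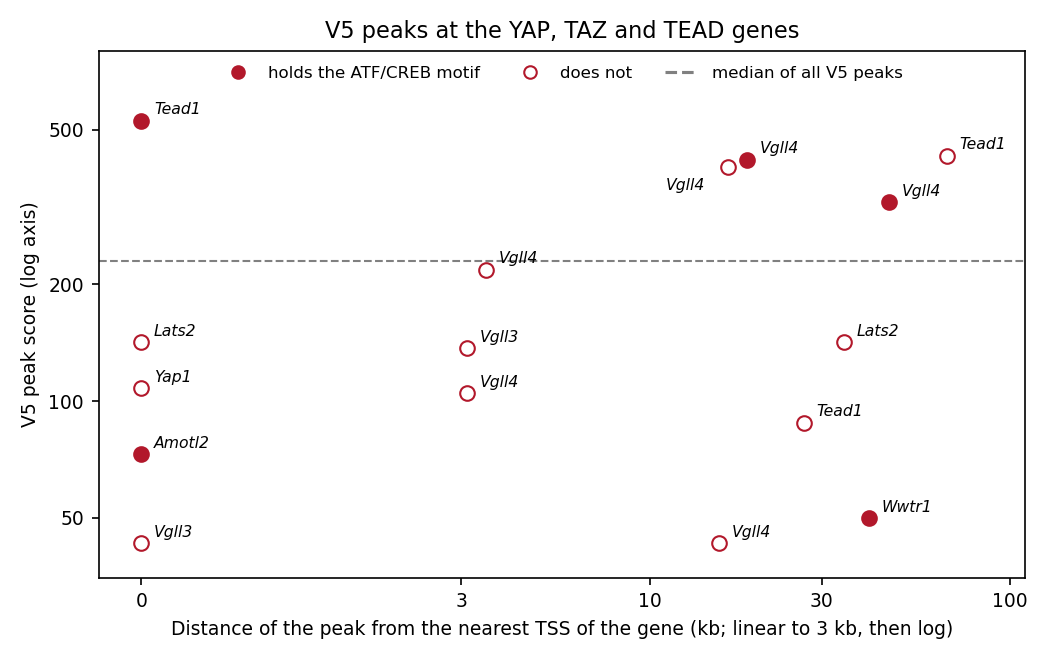
Score (log axis) of each of the 16 V5 peaks by its distance from the nearest TSS of the gene, in kb, linear to 3 kb and logarithmic beyond. Filled circles hold TGACGTCA, open circles do not, and the dashed line is the list median of 230. The 5 peaks above that line belong to Tead1 and Vgll4.

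TGANNTCA variants other than TGACGTCA were found in 4 of the 16, against 40.3%, the AP1 motif TGAGTCA in 2, against 26%, and 8 of the 16 held none of these motifs and no string, against 39%. The TEAD element GGAATG was found in 7 of the 16, a share close to the 38.2% of all V5 peaks. Within the central 200 bp, TGANNTCA variants were in 2 of the 16, against 17.7%, TGAGTCA in 2, against 10.4%, strings in 1, against 4.35%, and GGAATG in 3, against 11.7%. Which side of the list's share a motif fell on thus changed with the stretch searched for TGAGTCA and the strings. All motifs were searched on both strands, and a match describes the letters and not an occupied site.

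The TEAD element was also searched in the RefSeq promoters, from 250 bases before to 50 after each start on GRCm38.p6. Of the 10 genes 8 had an entry, with 12 promoters, and Tead1 and Tead4 had none. GGAATG was present in 9 of the 12 promoters, against 14.7% of all 32851 promoters of that length, and in at least 1 promoter of 7 of the 8 genes, against 16.6% of all genes with an entry. TGACGTCA was present in 0 of the 12, against 1.79%. Tead2 was the gene without GGAATG. Promoters of 1 gene can overlap, and those of Wwtr1 shared 1 match. One match for each of the 7 genes is shown on the strand of the gene with 10 bases on each side and the element, or its reverse complement CATTCC, in capitals.
Yap1, chr9:8004722-8004747, minus strand: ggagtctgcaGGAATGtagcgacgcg
Wwtr1, chr3:57576031-57576056, minus strand: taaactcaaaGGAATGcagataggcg
Tead3, chr17:28350972-28350997, minus strand: cgacgagcgaGGAATGgggtgcgcgg
Vgll3, chr16:65815116-65815141, plus strand: cgcctccccaCATTCCggctaccctg
Vgll4, chr6:114969270-114969295, minus strand: agtggggtggGGAATGctgagaaatg
Amotl2, chr9:102717729-102717754, plus strand: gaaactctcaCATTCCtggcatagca
Lats2, chr14:57746104-57746129, minus strand: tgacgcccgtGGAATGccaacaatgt
The first base of the match lay 141 bases upstream of the RefSeq start in Yap1, 136 in Wwtr1, 182 in Tead3, 63 in Vgll3, 82 in Vgll4 and 65 in Amotl2, and 4 bases downstream of it in Lats2. The Vgll4 entry is at the outermost TSSs, where no RNAPOL2 peak was found.

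The wider pathway was described from lists of symbols. Of 22 kinases, scaffolds and upstream genes of the Hippo pathway, 20 had RNAPOL2, 20 had H3K27ac and 7 had V5 at the promoter, where the shares of all coding genes were 53.5%, 58.6% and 16.6%. The strongest V5 promoter peak of the group, scored 4384 (rank 93), was at Stk4, which encodes the Hippo kinase MST1, followed by Map4k4 with 469 and the protocadherin gene Fat1 with 265. Wwc1 and Amot had no promoter peak in any list. The other vestigial-like genes Vgll1 and Vgll2 had none either. Of 20 further YAP and TAZ target genes, 14 had RNAPOL2, 17 had H3K27ac and 5 had V5 at the promoter, beside the same 53.5%, 58.6% and 16.6%. The highest V5 scores were 584 at Myof (rank 2228), 579 at Ccn1 (rank 2232), which encodes the matricellular protein CYR61, and 195 at Ptpn14. Ankrd1, F3 and Fjx1 had no promoter peak in any list.

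Markers of cell types were read the same way to check the label of the tissue. Of 6 melanocytic and neural crest genes, Mitf and Pmel had RNAPOL2 and H3K27ac at the promoter, Dct had V5, and Sox10, Tyr and Mlana had no promoter peak. None of 5 skeletal muscle genes had a promoter peak in any list. H3K27ac was at the promoters of 4 of 4 fibroblast, 3 of 3 endothelial and 3 of 3 leukocyte genes, RNAPOL2 at 2, 1 and 1 of them, and V5 at 0. The shares of all coding genes were 58.6%, 53.5% and 16.6%, so that so few markers do not settle which cells were present. The part of these other cells in the RNAPOL2 and H3K27ac peaks of the 10 genes was not tested.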

How the data were processed

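Peaks of V5, RNAPOL2 and H3K27ac in mCCS were taken from 3 deposited lists, 1 for each antibody. Following the submitters' processing notes and the methods, the authors aligned reads to mm10 with BWA (0.7.10-r789), removed duplicates, called peaks with MACS2 (2.2.6) against input, with the broad option for H3K27ac, and discarded denylisted regions. The deposited score of a peak is a whole number whose scale is not given in the sources used here. According to the methods, replicates were averaged into enrichment tracks, but how samples were combined into a peak list is not given. The lists hold no counts, so depth is unknown. Genes came from GENCODE vM21, and a peak of which at least 1 bp lay in a window was counted. All 10 genes, with their highest-scored promoter and V5 peaks, were described, along with the 3 genes most like Tead1 and, of each pathway list, the 3 genes with the highest V5 promoter scores and those without a promoter peak. The rule for the 10 genes uses symbols and no measured value, but genes, lists and motifs were chosen with earlier results of these data known. Functions were tested on simulated data. Python 3.11.15 and matplotlib 3.10.9 were used. One promoter sequence is not reported here.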

Additional observations from a re-analysis of the deposited data

How the results depend on the processing

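The counts of genes with peaks, of V5 peaks that overlap a mark or hold a motif, and of genes that touch a cluster were recomputed, each under those of the following that apply to it: windows of 1 or 5 kb for promoters and 25 or 100 kb around TSSs, coding TSSs alone, peak middles, the nearest coding gene alone, the upper 50% of a list by score, other stitching and cluster rules, and motifs in the central 200 bp. The other counts were not recomputed. Of 49 such values 41 lay within 1.5 times the value given and 8 fell by more. With the upper 50% of the V5 list, V5 promoter peaks were left at 1 gene, V5 in the body at 2 genes and V5 within 50 kb at 2 genes, where the shares of all coding genes were 7.14%, 10.2% and 24%. With the whole V5 list and the upper 50% of the RNAPOL2 list, 6 of the 16 V5 peaks overlapped RNAPOL2, against 29.6% of all V5 peaks. With clusters of at least 5 peaks 1 gene touched one, and no share of coding genes is at hand for that rule, so the count cannot be placed against the background. Within the central 200 bp, TGACGTCA was in 1 V5 peak, TGANNTCA variants in 2 and GGAATG in 3, where the shares of all V5 peaks were 5.35%, 17.7% and 11.7%. Within 100 kb of a TSS, V5 was at 10 genes. The rule that a peak must cover a TSS was chosen after seeing the data and changed no count. No paired analysis was possible because each antibody has a single list and no value per sample.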
